A study of Mus musculus with 48 samples.

Results

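The comparison was between dorsal hippocampus labelled KO and dorsal hippocampus labelled WT, across all genes of the deposited count table. Its members were the 12 dorsal hippocampal libraries of the 48 in the series, 6 with the KO label and 6 with the WT label, each set with 3 females and 3 males. The KO label stands for mice of genotype 129/Sv-Cyp2e1tm1Gonz/J, in which the gene of cytochrome P450 2E1 (Cyp2e1) was targeted, and the WT label for mice of the inbred strain 129S1/SvImJ. All mice were 16 weeks old and on normal chow, and no label names a drug or other treatment. The labels call the 3 libraries of a group biological replicates. They do not say that mice of the 2 labels were littermates or that regions came from the same animals. The 2 labels name different 129 lines, so the targeted allele and any other difference between these lines cannot be told apart.

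The hippocampus is a folded cortical structure for spatial and episodic memory. Its excitatory cells are the granule cells of the dentate gyrus and the pyramidal cells of areas CA3, CA2 and CA1, held in balance by GABA-releasing interneurons, and astrocytes clear potassium and transmitter around them. The dorsal part is the one most tied to spatial memory in rodents. Cytochrome P450 2E1 is best known from liver, where it oxidises ethanol and other small molecules, and it is made at low levels in brain.

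The libraries held 15.8 to 19.8 M counts under the KO label and 15.4 to 18.5 M under the WT label (M for mega). Levels are given as CPM, counts per M of the TMM-scaled library total, which are not corrected for gene length. Of 56748 genes listed, 17402 passed the filter on low counts and were tested with edgeR's quasi-likelihood test with sex as a covariate. A gene is called where its p, adjusted by Benjamini and Hochberg over all genes tested, was under 0.05. Xist and Ddx3y levels matched the sex label in 12 of 12 libraries. Hippocampal markers were present under both labels: Prox1, which marks dentate granule cells, ranged from 30.9 to 57.0 CPM in the KO libraries and from 51.8 to 82.9 CPM in the WT libraries, and Wfs1, which marks CA1, from 144 to 231 CPM and from 147 to 249 CPM in the same order. The other marker of each cell type reached lower in KO. C1ql2 (dentate) ranged from 9.54 to 37.5 CPM in KO and from 25.7 to 37.9 CPM in WT. Fibcd1 (CA1) ranged from 16.9 to 86.9 CPM in KO (median 69.4 CPM) and from 73.1 to 88.8 CPM in WT. The labels' protocol mentions liver, and albumin (Alb) stood at 0.104 CPM or less in the KO libraries and at 0.173 CPM or less in the WT libraries.

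Male KO 1 stood apart in markers of the cerebellum. Gabra6, a GABA-A receptor subunit of cerebellar granule cells, reached 184 CPM there, against a median of 0.0852 CPM over the KO libraries and at most 0.124 CPM in any WT library. Cbln3, also of granule cells, reached 494 CPM against a KO median of 0.814 CPM and at most 1.18 CPM in WT. The 14 genes of the cerebellar granule cell list summed to 4022 CPM in male KO 1, with 1959 CPM in the next KO library and 1898 to 2380 CPM in WT. The Purkinje cell list summed to 3678 CPM there, with 1841 CPM in the next KO library and 1672 to 1973 CPM in WT. The meningeal fibroblast list summed to 493 to 1649 CPM in KO, highest again in male KO 1, and to 377 to 840 CPM in WT. It was not confined to that library: every KO library but female KO 1 held at least 986 CPM, above all WT libraries. Ttr, a choroid plexus transcript, ran from 1.46 to 845 CPM in KO and from 1.73 to 578 CPM in WT, so that this tissue varied within both labels. The 70 calls of the main comparison, below, were also read without male KO 1, which kept 58, and with granule markers as a covariate (their mean log2 level per library), which kept 33, and losses or gains are given beside the genes and lists named.

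The change across the transcriptome was small. In all, 70 genes were called, 0.402% of those tested: 23 were higher in the libraries labelled KO (0.132% of genes tested) and 47 were lower (0.27%). All 70 had the same sign in females and in males. In 61 of the 70 the 6 KO libraries and the 6 WT libraries did not overlap, where 227 genes, 1.3% of all tested, were separated in this way. Most of the called changes were slight, with 42 under 0.5 on the log2 scale (12 higher and 30 lower), 14 between 0.5 and 1 and 14 over 1. The median log2 difference over all genes was 0.01, with 5% and 95% quantiles of -0.28 and 0.47. An unadjusted p under 0.05 was found for 2215 genes, 12.7%, of which 1128 were higher and 1087 lower. Among genes under 1 CPM 2 were called higher and 1 lower (0.144% of 2083 tested), between 1 and 10 CPM 4 higher and 8 lower, between 10 and 100 CPM 14 higher and 20 lower, and over 100 CPM 3 higher and 18 lower (0.879% of 2389). Only 12 genes had an adjusted p under 0.001, and 56 lay between 0.01 and 0.05. The number called moved with single libraries. It was 50 without female KO 1, where the split turned to mostly higher (29 higher and 21 lower), 65 without female KO 2 and 134 without female KO 3. It was 81 without male KO 1 (35 higher and 46 lower). It was 23 without male KO 2 and 32 without male KO 3, and 35, 39 and 30 without female WT 1, 2 and 3. It was 25, 25 and 29 without male WT 1, 2 and 3. Closest to the threshold were Nek6 and Prkce on the inner side (adjusted p = 0.0496 for both, each lost without male KO 1 and with the covariate) and Galnt17 and Me3 on the outer side (0.0518 for both).

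**Figure D1:**
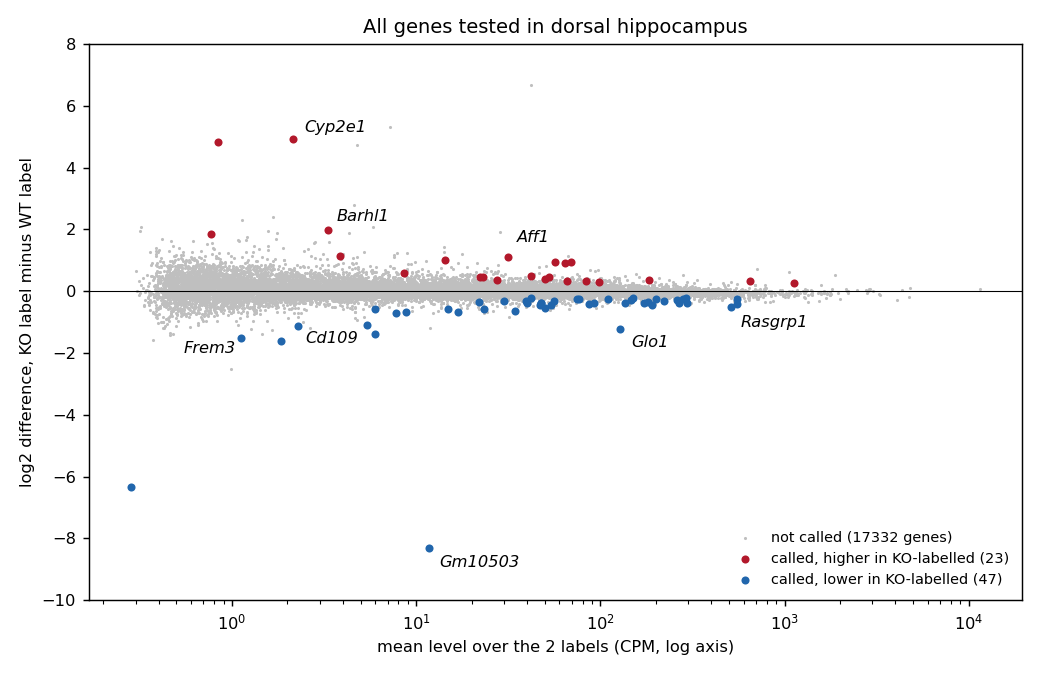
Each point is a gene, with its mean level over the 2 labels (CPM, log axis) against its log2 difference, KO label minus WT label; red points were called higher, blue points called lower and grey points were not called. The 23 red and 47 blue points lie mostly within 0.5 of 0, and Cyp2e1 and Gm10503 lie far out on either side.

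The targeted gene was read first. Cyp2e1 (ENSMUSG00000025479, chromosome 7, 140343652 to 140354900 on mm39, plus strand) had 4.24, 2.85 and 3.53 CPM in KO females and 4.23, 5.41 and 4.74 CPM in KO males, against 0.289, 0.169 and 0.185 CPM in WT females and 0, 0.124 and 0 CPM in WT males. Each KO library held 45 to 104 Cyp2e1 counts, while WT libraries held 0 to 5, and 2 WT libraries had none. The groups were far apart, and the difference runs against the labels, since the gene that the KO line carries in disrupted form was the one with more reads. Pooled, 449 counts in KO stood against 13 in WT, a ratio of 32.5 (exact 95% interval 18.8 to 61.5, counting error only). The fitted log2 difference was 4.92 (SE 0.39, edgeR adjusted p = 7.85e-06), and it was called in 12 of 12 fits that left out a library. The counts are per gene and do not show which exons were read, so they do not tell a transcript of the targeted allele from an intact one. Directions below are those of the labels and would all turn round if the labels were exchanged.

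The start of the Cyp2e1 gene is shown because the result turns on this transcript. The promoter window below (RefSeq, GRCm38.p6, chr7:140763569-140763868, plus strand, 250 bases before to 50 after the start) has a TATA motif, TATAAA, in capitals, which begins 31 bases before the start. On either strand, 13.6% of 32851 promoter windows of the same length hold these letters. The table holds such a window for 47 of the 70 called genes.
Cyp2e1 promoter: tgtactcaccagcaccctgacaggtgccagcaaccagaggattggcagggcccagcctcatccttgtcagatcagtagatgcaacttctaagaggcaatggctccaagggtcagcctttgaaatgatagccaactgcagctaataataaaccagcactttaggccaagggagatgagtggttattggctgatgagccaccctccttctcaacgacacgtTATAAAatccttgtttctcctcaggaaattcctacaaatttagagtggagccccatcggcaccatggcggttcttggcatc

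The other genes of ethanol and acetaldehyde oxidation did not pass the edgeR test. Of 16 tested members of that list, Cyp2e1 alone was called, and the list's median log2 difference was 0.06, against 0.01 over all genes. At an unadjusted p under 0.05 in edgeR, 7 of the 16, Cyp2e1 among them, were higher and 1 was lower. Over all genes 1128 of 17402 were higher at that threshold. DESeq2 called 2 members of the list higher. Aldh2, the mitochondrial acetaldehyde dehydrogenase, averaged 108 CPM in KO and 104 CPM in WT (log2 difference 0.04, adjusted p = 0.839), and catalase (Cat), which also oxidises ethanol in brain, averaged 44.2 CPM in KO and 40.1 CPM in WT (0.14, adjusted p = 0.348). None of 20 other cytochrome P450 genes and none of 35 genes of glutathione, peroxide and NRF2 defence was called, with medians of 0.10 and 0.01. Near Cyp2e1 on chromosome 7, Sprn, which encodes the prion-like protein Shadoo, was lower. Sprn had 149, 160 and 149 CPM in KO females and 153, 148 and 137 CPM in KO males, against 186, 175 and 185 CPM in WT females and 236, 196 and 201 CPM in WT males. No KO library reached the lowest WT library (log2 difference -0.39, SE 0.06, adjusted p = 0.0159), and the adjusted p was 0.0555 without male KO 2.

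Some of the called genes sat together in a few stretches of chromosome. On chromosome 5, from 103840240 to 104213245, a span of 373 kb, all 4 genes tested were higher in KO by close to 2-fold: Aff1, a scaffold of the super elongation complex of RNA polymerase II; Klhl8, a Kelch adaptor of cullin ubiquitin ligases; Hsd17b11, a short-chain dehydrogenase found on lipid droplets; and Nudt9, an ADP-ribose hydrolase. Klhl8 had 74.6, 77.8 and 71.7 CPM in KO females and 76.0, 72.5 and 75.6 CPM in KO males, against 38.3, 34.9 and 40.8 CPM in WT females and 40.2, 39.4 and 39.8 CPM in WT males. The spread within each label was a small part of the gap (log2 difference 0.94, SE 0.05, adjusted p = 7.80e-08). Nudt9 averaged 91.8 ± 5.04 CPM in KO and 47.3 ± 2.27 CPM in WT (SD, n = 6 each; 0.96, SE 0.05, adjusted p = 9.08e-08). Hsd17b11 averaged 84.5 ± 7.78 CPM in KO, where male KO 1 was lowest at 69.0 CPM, and 44.6 ± 3.68 CPM in WT (0.92, SE 0.07, adjusted p = 7.02e-06). Aff1 ranged from 36.0 to 50.2 CPM in KO and from 17.0 to 22.7 CPM in WT (1.11, SE 0.10, adjusted p = 2.05e-05). The run had sharp edges. Sparcl1, an abundant astrocyte gene next to Nudt9, averaged 2207 CPM in KO and 2103 CPM in WT (0.07, adjusted p = 0.6), and Ptpn13 on the other side averaged 19.5 CPM in KO and 16.9 CPM in WT (0.21). Of the other lipid droplet genes on that list none was called (16 tested, median 0.14), though 2 of the list were called higher without male KO 1 and with the granule marker covariate, nor was any other of 22 elongation genes beside Aff1 (median -0.00).

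On chromosome 17, from 30669372 to 31182194, 5 of 8 genes tested were called, all lower. Glo1, glyoxalase 1, which clears the reactive sugar by-product methylglyoxal, had 68.6, 85.2 and 88.6 CPM in KO females and 69.8, 76.4 and 75.5 CPM in KO males, against 183, 181 and 177 CPM in WT females and 205, 164 and 167 CPM in WT males. Every KO library lay far under the lowest WT library (log2 difference -1.22, SE 0.07, adjusted p = 1.94e-07). Dnah8, an axonemal dynein heavy chain whose start overlaps that of Glo1 on the opposite strand, ranged from 0.646 to 2.15 CPM in KO and from 2.47 to 3.95 CPM in WT (-1.12, SE 0.20, adjusted p = 0.0300). Whether counting used strand is not stated, so reads in the overlap cannot be told apart. The Dnah8 call was kept in 4 of 12 fits that left out a library, with an adjusted p of up to 0.0980, and was lost with the granule marker covariate. The noncoding RNA Gm10503, singled out after its values were known, had 7 counts in all KO libraries together and 2354 in the WT libraries, so that WT exceeded KO by a ratio of 358 (exact 95% interval 173 to 891). Glp1r, which overlaps Gm10503 on the opposite strand, averaged 2.66 CPM in KO and 3.06 CPM in WT (-0.22) and was not called. None of the 8 other tested genes of the glyoxalase list was called. Hagh, glyoxalase 2, averaged 62.9 CPM in KO and 64.4 CPM in WT (-0.03, adjusted p = 0.846), and Park7, which has been described as a further deglycase, 101 CPM in KO and 107 CPM in WT (-0.09, adjusted p = 0.529).

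Chromosome 4 held a looser run of 4 called genes among 37 tested from 42781928 to 44233789, all higher, of which 2 have placeholder names. Gba2, the non-lysosomal glucosylceramidase, had 104, 90.8 and 83.7 CPM in KO females and 91.5, 94.2 and 90.1 CPM in KO males, against 71.0, 73.7 and 71.9 CPM in WT females and 76.0, 78.8 and 74.4 CPM in WT males. Its labels did not overlap, and the difference was modest (log2 difference 0.31, SE 0.05, adjusted p = 0.0168; up to 0.0662 with a library left out, and kept in 8 of 12). A pair on chromosome 19 within 1 Mb moved in opposite directions. Ltbp3, which binds latent TGF-beta in the matrix, was higher (60.9 ± 7.55 CPM in KO, 44.2 ± 4.01 CPM in WT; 0.47, adjusted p = 0.0161), and Rin1, a Ras effector that activates Rab5 in neurons, was lower (49.9 ± 4.24 CPM in KO, 62.1 ± 5.48 CPM in WT; -0.31, adjusted p = 0.0412). Rin1 was kept in 2 of 12 fits that left out a library (adjusted p up to 0.117) and lost with the granule marker covariate, and Ltbp3 was kept in 9 (up to 0.0629, lost without each of the 3 male WT libraries). Chromosome 18 had no called gene among 488 tested.

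**Figure D2:**
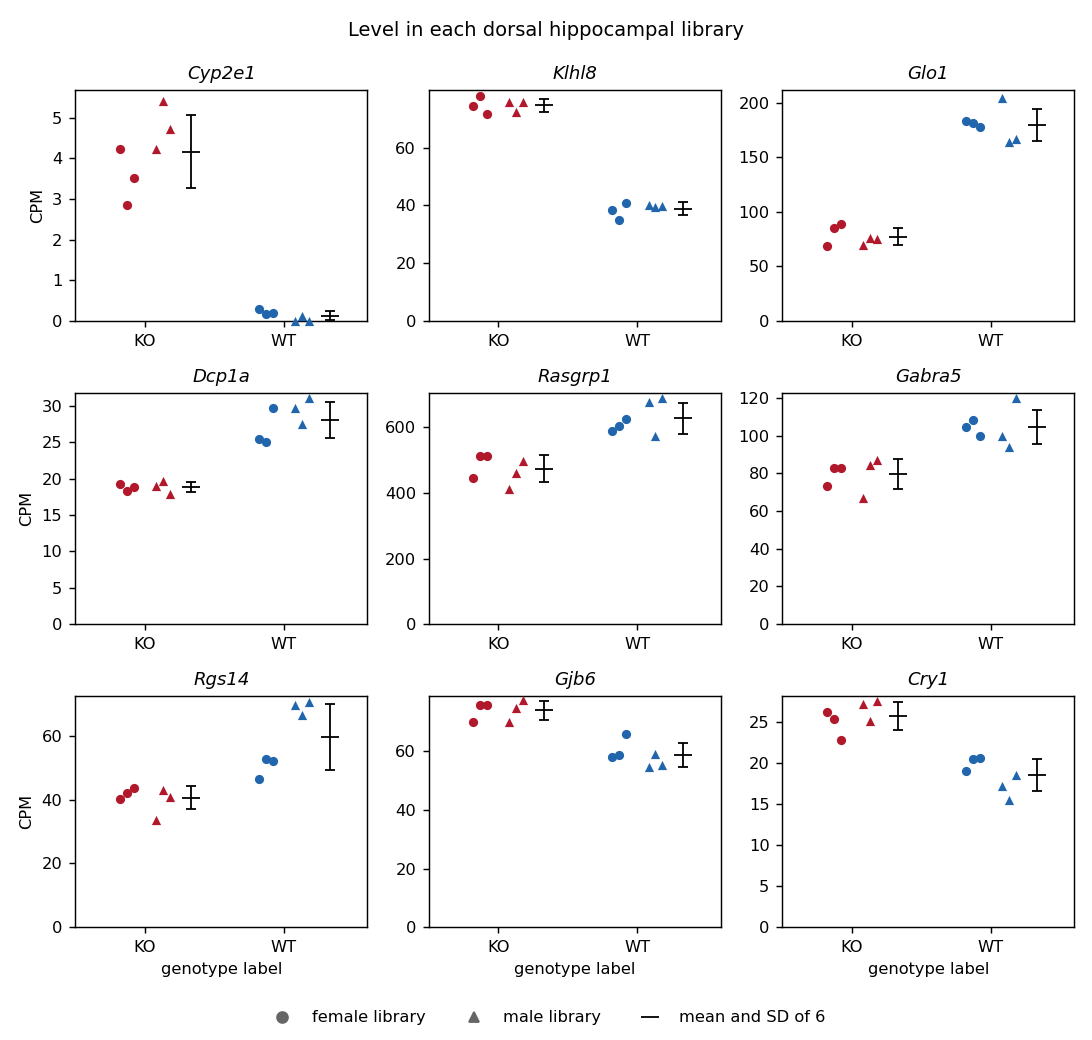
Levels (CPM, axes from 0) of 9 genes in each of the 12 libraries, KO label left and WT label right, with circles for females, triangles for males and the mean and SD of 6 beside them. The labels do not overlap in any of the 9 panels; the gap is widest for Cyp2e1, Klhl8 and Glo1 and narrowest for genes such as Rgs14, where WT females lie close to the KO libraries and WT males lie higher.

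Genes of excitatory neurons lay lower in the KO libraries. All 14 tested members of that list were below 0, with a median log2 difference of -0.23 against 0.01 over all genes, and 2 of the 14 were called, both lower. In bulk tissue, fewer cells of a type and less RNA per cell cannot be told apart. Rasgrp1, a Ras activator driven by diacylglycerol and calcium, had 446, 513 and 513 CPM in KO females and 413, 462 and 497 CPM in KO males, against 590, 604 and 627 CPM in WT females and 678, 575 and 691 CPM in WT males. The highest KO library stayed under the lowest WT library (log2 difference -0.40, SE 0.07, adjusted p = 0.0159), and the call was lost only without male KO 2 among the 12 left-out fits (adjusted p = 0.0546). Ptk2b, a calcium-activated tyrosine kinase (Pyk2) of postsynaptic sites, had 365, 444 and 489 CPM in KO females and 340, 477 and 403 CPM in KO males, against 497, 554 and 573 CPM in WT females and 684, 617 and 716 CPM in WT males (-0.52, SE 0.10, adjusted p = 0.0366). Its groups touched closely between female KO 3 and female WT 1, and the call was kept in 4 of 12 left-out fits (up to 0.0985) and lost with the granule marker covariate. The defining genes of the list were not called: Slc17a7, the vesicular glutamate transporter VGLUT1, averaged 1183 CPM in KO and 1399 CPM in WT (-0.23, adjusted p = 0.226), and Camk2a, the major kinase of the postsynaptic density, 3658 CPM in KO and 4455 CPM in WT (-0.28, adjusted p = 0.234). With the granule marker covariate the list's median was -0.17 and 1 member stayed called, and without male KO 1 it was -0.22 with both called. The meningeal fibroblast list moved the opposite way in the same libraries (median 0.51, with the summed levels given above). Without male KO 1 that median was 0.40. The part of this list in the result was not tested.

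The subfield lists gave few calls. Of 15 dentate granule cell genes 13 were below 0 (median -0.24) and Trpc6, a calcium-permeable cation channel, was called lower. Trpc6 had 4.98, 7.15 and 8.91 CPM in KO females and 6.21, 7.33 and 6.21 CPM in KO males, against 9.54, 11.2 and 11.3 CPM in WT females and 10.1, 10.7 and 12.2 CPM in WT males. The labels were separate (-0.67, SE 0.13, adjusted p = 0.0362), but only 3 of 12 left-out fits kept the call (up to 0.0986), and the granule marker covariate ended it. Prox1, the defining factor of this cell, averaged 45.1 CPM in KO and 65.5 CPM in WT, with overlap (-0.54, adjusted p = 0.147). Of 12 CA2 genes Rgs14, a G protein regulator that restrains plasticity in CA2, was called lower, at 40.3, 42.2 and 43.6 CPM in KO females and 33.8, 42.9 and 41.0 CPM in KO males, against 46.4, 52.8 and 52.2 CPM in WT females and 69.5, 66.5 and 70.6 CPM in WT males. The log2 difference was -0.54 over both sexes (SE 0.10, adjusted p = 0.0270), -0.81 in males and -0.26 in females, with an adjusted p of 0.157 for female minus male. The call was kept in 6 of 12 left-out fits (up to 0.0824). No other CA2 gene was called, and 8 of the 12 lay below 0 (median -0.05). The lowest was Ntf3, the neurotrophin NT-3, at 1.60 CPM in KO and 3.70 CPM in WT with overlap (-1.21, adjusted p = 0.127), and the highest was Amigo2. Amigo2 averaged 27.1 CPM in KO and 24.1 CPM in WT (0.19, adjusted p = 0.769) and Pcp4 21.9 CPM in KO and 22.7 CPM in WT (-0.06). None of 10 CA1 genes (median -0.19) and none of 12 CA3 genes (median -0.17) was called. Cdh9, a cadherin that in mice joins dentate axons to CA3 cells, was lower though it stood on none of these lists, with 13.1 ± 2.06 CPM in KO and 20.8 ± 1.86 CPM in WT (SD, n = 6 each; -0.66, SE 0.11, adjusted p = 0.0159), and it was called in all 12 left-out fits.

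Genes of GABA-A receptors lay lower. Of 17 GABA-A receptor genes tested 3 were called, all lower, and 13 lay below 0 (median -0.08). Gabra5, the alpha 5 subunit that is enriched in hippocampal pyramidal cells, had 73.4, 83.0 and 82.8 CPM in KO females and 66.6, 84.6 and 87.2 CPM in KO males, against 104, 108 and 99.9 CPM in WT females and 99.8, 94.0 and 120 CPM in WT males. The labels did not overlap (log2 difference -0.39, SE 0.07, adjusted p = 0.0364), though reads of an overlapping gene on the opposite strand cannot be told apart from its own. Gabra4, the alpha 4 subunit typical of extrasynaptic receptors on granule cells, ranged from 91.7 to 104 CPM in KO and from 115 to 124 CPM in WT (-0.25, SE 0.04, adjusted p = 0.0175). Gabrg3, a neighbour of Gabra5, averaged 34.0 CPM in KO and 34.6 CPM in WT (-0.04). Gabra4 was kept in 7 of 12 left-out fits (up to 0.0681) and Gabra5 in 5 (up to 0.0873), and without male KO 1 the list had 2 called genes. With the granule marker covariate Gabra4 alone stayed called. Interneuron genes did not go with them: none of 17 was called, their median was -0.01, and Gad1, which makes GABA, averaged 500 CPM in KO and 453 CPM in WT (0.14, adjusted p = 0.274). At an unadjusted p under 0.05 in edgeR, 6 of the 17 were higher and 2 lower. The interneuron list summed to a median of 2659 CPM in KO and 2445 CPM in WT.

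Glutamate receptor genes were not called. Of 24 ionotropic genes the smallest adjusted p belonged to Grin2b, the GluN2B subunit of the NMDA receptor, which averaged 321 CPM in KO and 413 CPM in WT (log2 difference -0.36, adjusted p = 0.0991), followed by Grin2a, at 198 CPM in KO and 251 CPM in WT (-0.34, adjusted p = 0.122). The list's median was -0.02, and DESeq2 called 5 of its members lower. None of 16 metabotropic receptor and Homer genes, 16 acetylcholine genes or 24 monoamine receptors was called, while 1 acetylcholine gene was called higher without male KO 1 and with the granule marker covariate. Among 46 potassium channel genes Kcns2, a silent subunit that modifies Kv2 channels, was called lower (34.6 ± 3.28 CPM in KO, 44.9 ± 3.62 CPM in WT; -0.38, SE 0.07, adjusted p = 0.0404; kept in 3 of 12 left-out fits, up to 0.115, and lost with the granule marker covariate). Without male KO 1 and with the covariate, 1 potassium channel gene was called higher. Among 36 calcium and sodium channel genes and their kin, Ano3, an anoctamin of the TMEM16 family, was called lower. Ano3 had 116, 128 and 115 CPM in KO females and 114, 113 and 123 CPM in KO males, against 152, 147 and 153 CPM in WT females and 162, 143 and 160 CPM in WT males, with a wide margin between the labels (-0.37, SE 0.05, adjusted p = 0.00198). It was called in all 12 left-out fits.

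**Figure D3:**
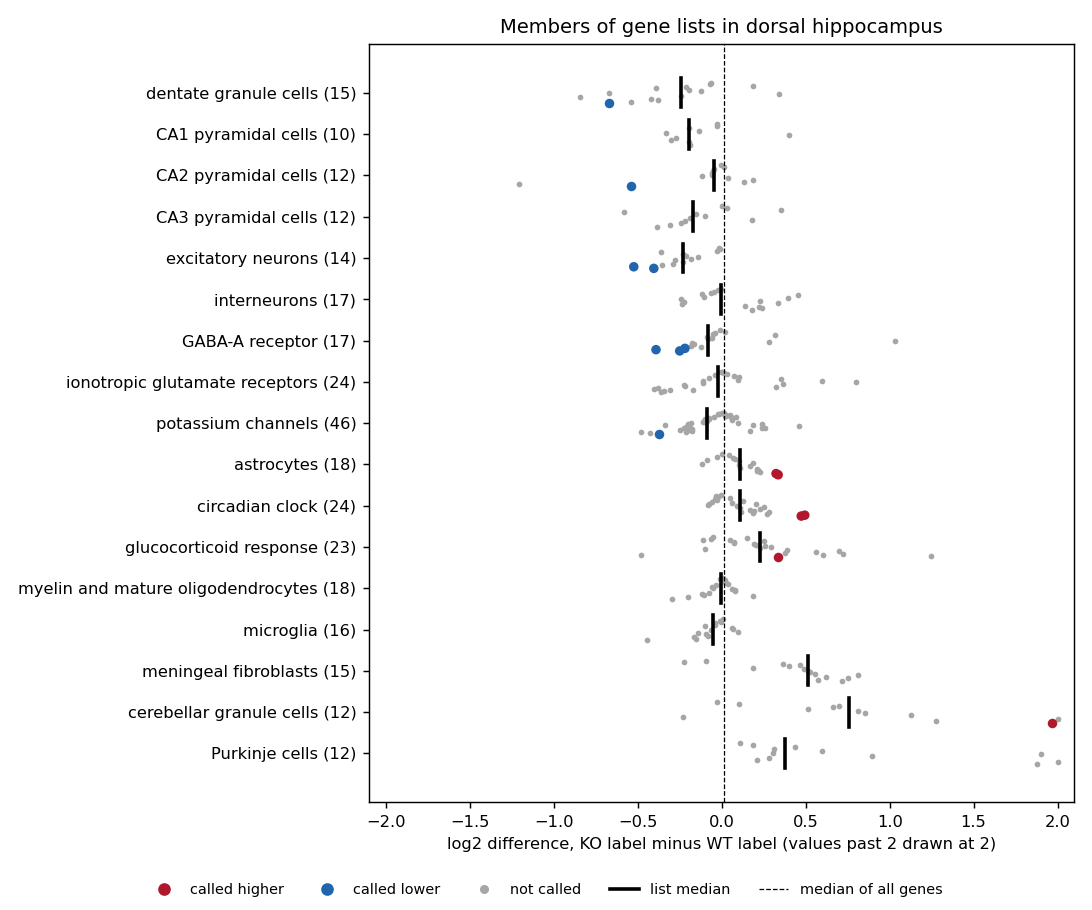
Members of 17 gene lists (number tested in brackets) by log2 difference, KO label minus WT label; red dots were called higher, blue dots called lower, grey dots not called, black bars are list medians and the dashed line is the median of all genes at 0.01. Values past 2 are drawn at 2. Lists of excitatory and dentate cells lie left of the line, astrocyte, clock and glucocorticoid lists right of it, and the cerebellar and meningeal lists farthest right. By summed level the cerebellar lists are high in male KO 1 alone, and the meningeal list exceeds WT in all KO libraries but female KO 1.

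Astrocyte genes went the other way. Of 18 tested, 15 were above 0 (median log2 difference 0.11) and 2 were called higher. Gjb6, the gap junction protein connexin 30, had 69.9, 75.7 and 75.9 CPM in KO females and 69.9, 74.6 and 77.5 CPM in KO males, against 58.0, 58.8 and 65.8 CPM in WT females and 54.7, 59.1 and 55.2 CPM in WT males. The lowest KO library was above the highest WT library (0.34, SE 0.05, adjusted p = 0.0128), and the call held in all 12 left-out fits. Atp1b2, the glial beta 2 subunit of the sodium pump, ranged from 657 to 822 CPM in KO and from 549 to 604 CPM in WT (0.32, SE 0.05, adjusted p = 0.0175; kept in 8 of 12 left-out fits, up to 0.0761). The usual identity genes did not pass: Slc1a2, the glutamate transporter GLT-1, averaged 3156 CPM in KO and 3426 CPM in WT (-0.12, adjusted p = 0.53), and Aqp4, the water channel of astrocyte endfeet, 155 CPM in KO and 138 CPM in WT (0.19, adjusted p = 0.535). Lcat, an enzyme that esterifies cholesterol on brain lipoproteins and is made by astrocytes, was higher (26.6 ± 3.25 CPM in KO, 19.5 ± 0.789 CPM in WT; 0.45, SE 0.08, adjusted p = 0.0270; kept in 3 of 12 left-out fits, up to 0.0899, and lost with the granule marker covariate). Without male KO 1 and with the covariate, 3 astrocyte genes were called higher instead of 2.

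The circadian clock list had 2 called members of 24, both higher and both repressors of the clock's negative arm, and 16 of 24 lay above 0 (median 0.11). Cry1 had 26.2, 25.4 and 22.8 CPM in KO females and 27.2, 25.1 and 27.5 CPM in KO males, against 19.0, 20.5 and 20.6 CPM in WT females and 17.3, 15.5 and 18.5 CPM in WT males. All 6 KO libraries exceeded all 6 WT libraries (log2 difference 0.47, SE 0.08, adjusted p = 0.0168; kept in 8 of 12 left-out fits, up to 0.0719). Per2 had 55.6, 40.1 and 51.5 CPM in KO females and 45.5, 46.0 and 55.5 CPM in KO males, against 33.5, 38.4 and 42.5 CPM in WT females and 31.5, 31.4 and 32.2 CPM in WT males. Here female WT 3 lay above female KO 2, and the difference was 0.49 (SE 0.09, adjusted p = 0.0307; kept in 4 of 12, up to 0.0985). Both stayed called without male KO 1 and with the granule marker covariate. Other members were not called, among them Per3 (57.4 CPM in KO, 47.9 CPM in WT; 0.27, adjusted p = 0.246) and Dbp (88.4 CPM in KO, 77.6 CPM in WT; 0.19, adjusted p = 0.354). The labels give no hour of dissection. Clock proteins bind the E-box CACGTG, and the Cry1 promoter window is shown for that reason (RefSeq, GRCm38.p6, chr10:85185005-85185304, minus strand). Its E-box, in capitals, begins 60 bases before the start, and 7.15% of all 32851 windows hold this motif, which reads alike on both strands. Of the 2 called clock genes only Cry1 was matched in the table.
Cry1 promoter: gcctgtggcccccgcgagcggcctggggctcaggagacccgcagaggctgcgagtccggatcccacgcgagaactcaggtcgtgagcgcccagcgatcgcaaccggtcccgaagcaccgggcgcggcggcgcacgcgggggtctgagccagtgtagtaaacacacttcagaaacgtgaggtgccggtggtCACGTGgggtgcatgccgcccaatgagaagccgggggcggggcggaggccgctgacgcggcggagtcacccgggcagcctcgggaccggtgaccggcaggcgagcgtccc

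Glucocorticoid-responsive genes lay above 0 in 18 of 23 cases (median log2 difference 0.23), and only Gjb6, which is also on the astrocyte list, was called. Plin4, which coats lipid droplets and responds to glucocorticoids, averaged 12.4 CPM in KO and 5.39 CPM in WT with overlap (1.24, adjusted p = 0.0708), Sgk1, a kinase induced by them, 120 CPM in KO and 73.7 CPM in WT (0.70, adjusted p = 0.241), and Nr3c2, the mineralocorticoid receptor, 85.8 CPM in KO and 120 CPM in WT (-0.48, adjusted p = 0.127). Without male KO 1 there were 3 called higher on this list, and with the granule marker covariate 2. None of 26 immediate early genes was called, and their sum ran from 1027 to 3361 CPM in KO and from 1096 to 3288 CPM in WT. The sum was lowest in library 1 of each sex and label. It was 1433 CPM in female KO 1, 1027 CPM in male KO 1, 1096 CPM in female WT 1 and 1283 CPM in male WT 1. All other libraries held 2034 to 3361 CPM.

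Several genes that stood on no list, or on a list by themselves, were among the firmest calls. Ttll12, of the tubulin tyrosine ligase family, was higher by close to 2-fold, with 18.6, 21.2 and 21.4 CPM in KO females and 15.1, 20.8 and 18.2 CPM in KO males, against 9.19, 9.62 and 8.95 CPM in WT females and 11.0, 10.5 and 8.46 CPM in WT males (log2 difference 0.99, SE 0.10, adjusted p = 1.36e-04). Dcp1a, a cofactor that activates removal of the mRNA cap, had 19.3, 18.3 and 18.9 CPM in KO females and 19.0, 19.7 and 17.9 CPM in KO males, against 25.5, 25.0 and 29.7 CPM in WT females and 29.8, 27.5 and 31.1 CPM in WT males. The 6 KO values lay within a narrow band under all WT values (-0.57, SE 0.07, adjusted p = 5.30e-04), and no other of 28 decapping and decay genes was called (median 0.00). Lmo7, a LIM-domain protein tied to actin and cell junctions, averaged 74.9 ± 5.18 CPM in KO and 99.5 ± 9.43 CPM in WT (SD, n = 6 each; -0.41, SE 0.06, adjusted p = 0.00764). Plppr4, a membrane protein of glutamatergic synapses (PRG-1) that handles bioactive lipids, averaged 254 ± 24.2 CPM in KO and 334 ± 26.5 CPM in WT (-0.39, SE 0.06, adjusted p = 0.0159). Cd109, a GPI-anchored protein that binds TGF-beta, ranged from 2.18 to 4.84 CPM in KO and from 5.90 to 9.32 CPM in WT (-1.10, SE 0.18, adjusted p = 0.0159). These 5 genes were called in all 12 left-out fits.

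The remaining named genes had smaller or less stable differences. Higher in KO were Slc38a2, the amino acid transporter SNAT2 (207 ± 17.6 CPM in KO, 161 ± 8.11 CPM in WT; log2 difference 0.36, adjusted p = 0.0159), Ptch1, the hedgehog receptor (109 ± 6.54 CPM in KO, 87.8 ± 5.69 CPM in WT; 0.31, adjusted p = 0.0270), and Fam177a2, whose close copy Fam177a makes its count uncertain (5.28 ± 0.799 CPM in KO, 2.48 ± 1.18 CPM in WT; 1.12, adjusted p = 0.0401). Lower in KO were Hrk, a BH3-only promoter of cell death in neurons (39.4 ± 4.34 CPM in KO, 54.5 ± 6.59 CPM in WT; -0.46, adjusted p = 0.0161), Stbd1, a glycogen-binding protein (5.88 ± 0.920 CPM in KO, 9.69 ± 1.41 CPM in WT; -0.72, adjusted p = 0.0270), and Frem3, a matrix protein (0.577 ± 0.218 CPM in KO, 1.67 ± 0.497 CPM in WT; -1.52, adjusted p = 0.0300). Errors are SD over 6 libraries of a label. Slc38a2 and Hrk were kept in 9 of 12 left-out fits each, with an adjusted p of up to 0.0570 and 0.0548. Ptch1, Stbd1 and Frem3 were kept in 5 each (up to 0.0926, 0.0858 and 0.0980), and Fam177a2 in 3 (up to 0.125). These 4 were lost with the granule marker covariate. Barhl1, a homeobox factor of the cerebellar granule lineage, had 5.61, 4.68 and 3.87 CPM in KO females and 7.11, 4.58 and 5.74 CPM in KO males, against 1.21, 0.900 and 1.17 CPM in WT females and 2.41, 2.35 and 0 CPM in WT males. It was the 1 called member of the granule cell list (12 tested, median 0.75; 1.97, SE 0.40, adjusted p = 0.0496), and it was highest in male KO 1, where that list summed to 4022 CPM. The lowest KO library was above the highest WT library, and Barhl1 was kept in 2 of 12 left-out fits (up to 0.116). Without male KO 1 its log2 difference was 1.89 (adjusted p = 0.0540) and with the covariate 1.88 (adjusted p = 0.0668), while the list's median was 0.05 and -0.10 in that order and no member was called.

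No member was called in the lists of myelin and mature oligodendrocytes (18 tested, median log2 difference -0.00), oligodendrocyte precursors (10, 0.04), microglia (16, -0.05), endothelium and pericytes (18, 0.07), meningeal fibroblasts (15, 0.51), choroid plexus and ependyma (16, 0.22) or Purkinje cells (12, 0.38). Without male KO 1 and with the granule marker covariate, 1 endothelium and pericyte gene and 1 choroid plexus and ependyma gene were called higher. Cholesterol synthesis and uptake (23, -0.02), the mitochondrially encoded genes (13, 0.08) and the nuclear respiratory chain (77, -0.05) had no called member in the main fit or in either of these. Nor had the heat shock and unfolded protein response (30, 0.04) or interferon response and MHC (37, 0.17). Of 80 cytosolic ribosome genes 72 lay below 0 (median -0.08), none was called by edgeR, and DESeq2 called 4 lower.

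The change was compared between the sexes. The difference between the female and the male contrast was called for no gene by edgeR (2253 genes at an unadjusted p under 0.05), while DESeq2 called 284. The smallest p belonged to mt-Nd6, a mitochondrially encoded subunit of respiratory complex I read from the opposite strand to most of that genome. It had 735, 516 and 674 CPM in KO females and 872, 766 and 823 CPM in KO males, against 859, 859 and 725 CPM in WT females and 421, 551 and 507 CPM in WT males. The log2 difference was -0.34 in females and 0.73 in males, and the adjusted p of the difference between sexes was 0.130. The whole mitochondrially encoded list ran the same way. In females it summed to 23535 to 31343 CPM in KO and 32559 to 35840 CPM in WT. In males it summed to 32819 to 36124 CPM in KO and 24126 to 26284 CPM in WT. Lrrtm1, an excitatory synapse organiser (0.11 in females, -0.51 in males), and Rpl27, a ribosomal protein (0.17 and -0.32 in that order), had the same adjusted p of 0.130. Among the 70 called genes the change was larger in males for 57, and 9 had an unadjusted p under 0.05 for the difference. The share with a larger change in males was not counted over all genes tested. In the fit of all 12 libraries the female contrast called 10 genes (0.0575%) and the male contrast 326 (1.87%), and such counts do not test a difference between the sexes.

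The called genes fell into those shared with other brain regions and those called in dorsal hippocampus alone. Of the 70, 19 were also called in at least 1 of ventral hippocampus, medial prefrontal cortex and cerebellum, each fitted apart, and always with the same sign; 10 of them were called in all 4 regions. In these regions 13 (0.0748%), 22 (0.129%) and 11 (0.0617%) genes were called in all. The cerebellar libraries differed between labels in markers of their own tissue, with overlap. Median Gabra6 there was 488 CPM in KO and 38.8 CPM in WT, and median Cbln3 1174 CPM in KO and 103 CPM in WT. Cerebellar values given here carry that difference. In ventral hippocampus cerebellar markers were high in part of the libraries under both labels. Gabra6 reached 327 CPM in KO (median 2.51 CPM) and 308 CPM in WT (median 0.935 CPM). Cbln3 reached 831 CPM in KO (median 6.69 CPM) and 973 CPM in WT (median 2.79 CPM). Ventral values and the test against ventral hippocampus below include those libraries. The 19 shared genes had a median absolute log2 difference of 0.99, and 13 of them were called in all 12 left-out fits. Cyp2e1, the chromosome 5 run, Glo1, Ttll12 and Dcp1a belong here. Klhl8, for example, changed by 0.94 in dorsal hippocampus and by 0.97, 0.94 and 1.07 in ventral hippocampus, prefrontal cortex and cerebellum. The other 51, of which 39 were lower, had a median absolute difference of 0.376, and 7 were called in all 12 left-out fits. The change was larger in males for 47 of these 51 and for 10 of the 19 shared genes. For the 39 lower genes the median log2 difference was -0.38 in dorsal hippocampus, -0.09 in ventral hippocampus, -0.05 in prefrontal cortex and -0.16 in cerebellum. Their sign was the same in 35 of 38, 29 of 37 and 23 of 39 genes tested there, and over all genes it was the same in 62.2%, 65.7% and 59.8%. The neuronal and astrocyte genes belong to this set. Rasgrp1 changed by -0.40 in dorsal hippocampus, 0.01 in ventral hippocampus and -0.06 in prefrontal cortex, Rgs14 by -0.54, -0.02 and -0.03, Ptk2b by -0.52, -0.06 and -0.00, and Gjb6 by 0.34, 0.06 and 0.25, each in that order. Per2, called in 1 other region, changed by 0.49, 0.43 and 0.64. Ventral values were less precise for Rasgrp1, Rgs14, Ptk2b and Gjb6. Their SE in that order was 0.18, 0.20, 0.26 and 0.13 in ventral hippocampus, against 0.07, 0.10, 0.10 and 0.05 in dorsal hippocampus. In prefrontal cortex the SE was 0.05, 0.06, 0.05 and 0.05 in that order, no larger than in dorsal hippocampus. The part of precision in calls made in dorsal hippocampus alone was not tested.

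A test of the difference between regions called no gene. Against ventral hippocampus none of 18184 genes passed with edgeR (467 at an unadjusted p under 0.05) or with DESeq2, and against prefrontal cortex none of 17999 passed with edgeR (833 at an unadjusted p under 0.05), while DESeq2 called 11. Among the 3 smallest p for dorsal minus ventral hippocampus were those of Serpina1b, an alpha-1-antitrypsin gene with close copies among which reads may be split, and Cmklr1, a chemerin receptor, each with an adjusted p of 1.00. For dorsal hippocampus minus prefrontal cortex the 3 smallest belonged to Calhm5, of the calcium homeostasis modulator family (log2 difference between regions -0.76; its call in dorsal hippocampus was lost without male KO 1 and with the granule marker covariate), Lmo7 (-0.53) and Plppr4 (-0.41), with adjusted p of 0.149, 0.149 and 0.380. Of the 51 genes called in dorsal hippocampus alone, 38 had an unadjusted p under 0.05 for the difference from prefrontal cortex and 5 for that from ventral hippocampus. These genes were picked for their change in dorsal hippocampus, so such counts describe them and do not test them.

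**Figure D4:**
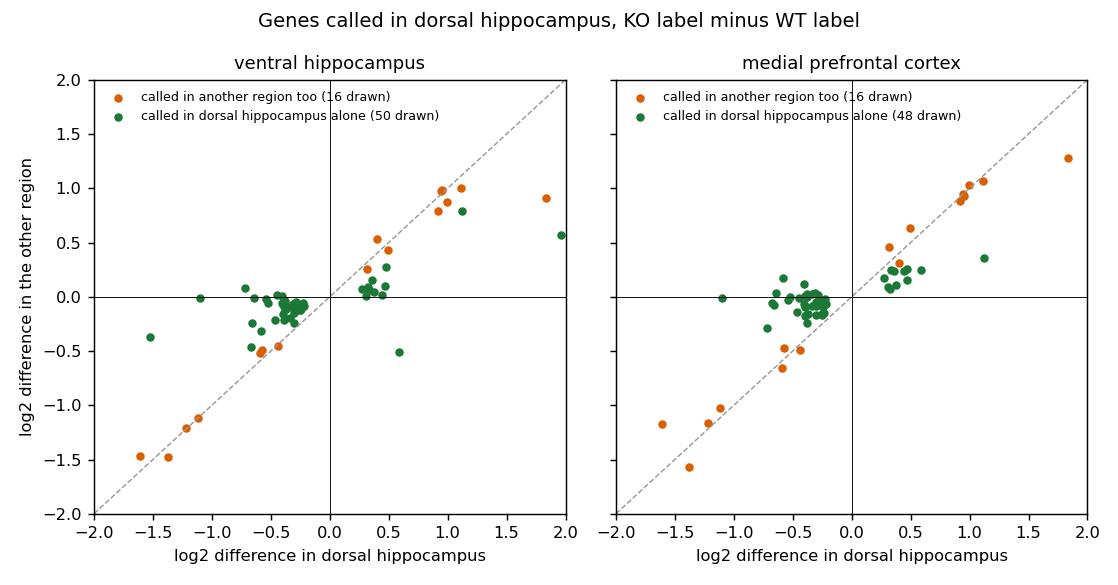
Log2 difference, KO label minus WT label, in dorsal hippocampus (across) against ventral hippocampus (left panel) and medial prefrontal cortex (right panel) for the called genes, with orange for those called in another region too and green for those called in dorsal hippocampus alone; the dashed line marks equal values and genes past 2 on either axis are not drawn. Orange points follow the dashed line in both panels, while most green points lie near 0 on the vertical axis.

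**Figure D5:**
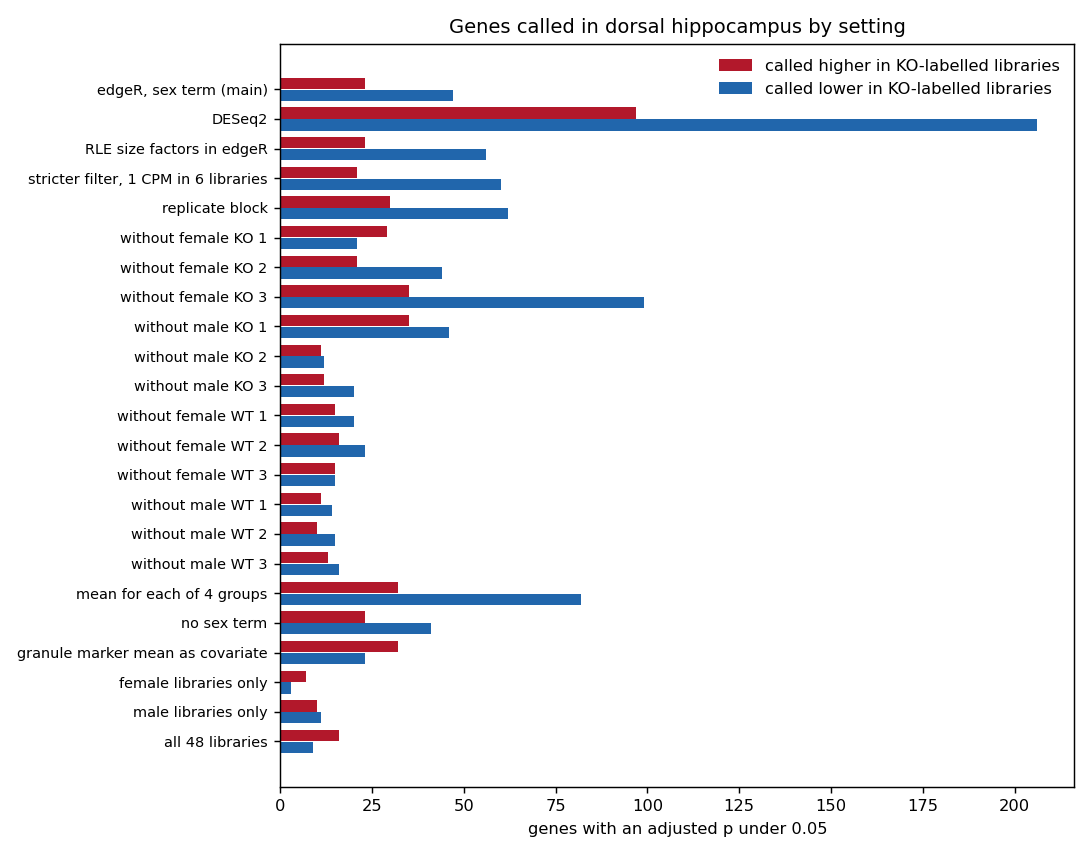
Number of genes called higher (red) and lower (blue) in the KO libraries under each setting of the test, with each library left out in turn; the fit without a filter on low counts is not drawn. The bars run from 10 genes with female libraries only to 303 with DESeq2, against 70 in the fit reported here.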

How the data were processed

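Raw gene counts were deposited, which the authors made from reads aligned with HISAT2 2.0.5 to mm39, per the submitters' processing notes, which also name DESeq2. The counting tool, strand setting and annotation release are not given in the sources used here. Polyadenylated RNA was sequenced. Columns were matched to samples by the names in the labels.

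The 12 dorsal hippocampal libraries were fitted with edgeR 4.0.16 under R 4.3.3 (quasi-likelihood test, TMM factors, filterByExpr with a minimum count of 10 and total of 15, sex as an additive term), and each other region in the same way. Library totals of at least 15.4 M counts limit low genes most. Differences between sexes and between regions were tested as interactions. No pair of libraries within a group agreed within sampling noise (lowest chi-square per degree of freedom 4.34 over 12 pairs). The highest values were those of male KO 1 with male KO 2 and 3 (21.3 and 20.0). Next were those of female KO 1 with female KO 2 and 3 (17.7 for both). All other pairs lay between 4.34 and 7.72. Over all genes, same-numbered libraries of the same sex did not deviate together (correlation -0.12 to 0.13, over 0.1 in 2 of 6 pairs), so the numbers were not taken as pairs. That measure does not exclude shared shifts in a few genes: immediate early genes were lowest in library 1 of each sex and label. The code was tested on simulated counts.

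Named genes were Cyp2e1; in either direction, the 15 called genes of smallest p that agreed in sign between sexes, averaged at least 10 counts and had no placeholder symbol; the 5 each way with the largest change; up to 4 called members per list; called genes within 1 Mb of each other; and 3 genes per difference test. Of the genes this rule names, 5 are not reported here. Comparisons, members and lists were chosen with earlier results of these data known. Alternatives were DESeq2 1.42.0, other scaling, filters and designs, a granule marker covariate, and leaving out each library. Intervals cover counting error only.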

Additional observations from a re-analysis of the deposited data

Results flagged for a closer look

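Levels of the named genes given above and summed levels of the lists were examined in the 6 libraries of each label for a library far from the other 5. Library totals and the mitochondrial and ribosomal RNA shares were examined in the same way. A single library stood apart in 14 of 184 such groups, and 7 of the 14 were male KO 1. Chance flags about 1 in 20 where values are independent and normally spread. These groups share libraries, so that rate is only a rough guide. In that library the cerebellar granule cell list summed to 4022 CPM (nearest KO library 1959 CPM) and the Purkinje cell list to 3678 CPM (nearest 1841 CPM), Serpina1b reached 1.19 CPM (nearest 0.624 CPM) and the RGS protein list 1604 CPM (nearest 1466 CPM). In the same library Hsd17b11 was low at 69.0 CPM (nearest 85.7 CPM), Rgs14 at 33.8 CPM (nearest 40.3 CPM) and the lipid droplet list at 468 CPM (nearest 503 CPM). Both genes stayed called without it.

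Gabra4 was lowest in female KO 1, at 91.7 CPM (nearest 99.7 CPM). In female KO 2 the glyoxalase list was highest at 1339 CPM (nearest 1201 CPM), as was the nuclear respiratory chain list at 10248 CPM (nearest 9559 CPM). Among WT libraries, the glyoxalase list reached 1504 CPM in male WT 1 (nearest 1366 CPM). Female WT 3 had the highest Fam177a2, 4.75 CPM (nearest 2.70 CPM), the highest choroid plexus and ependyma list, 703 CPM (nearest 142 CPM), and the highest liver list, 579 CPM (nearest 82.6 CPM). The liver list in that library consisted almost wholly of Ttr, at 578 CPM, which the choroid plexus also makes.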

How the results depend on the processing

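The 41 genes named by the rule for KO against WT kept their direction in all 941 fits of a gene under an alternative, and 667 of these kept the call. The 41 were picked for their calls in the same libraries, most also for the same sign in both sexes. Their constant direction therefore describes them and does not test them. The number called moved far more. Against 70 (23 higher, 47 lower), DESeq2 called 303 (97 higher, 206 lower; 66 of the 70 among them), a mean for each of 4 groups 114 (82 lower; 69 of the 70), no low-count filter 807 (496 higher, 311 lower), all 48 libraries in one model 25 (9 lower), female libraries only 10 (7 higher, 3 lower) and male libraries only 21 (10 higher, 11 lower). The granule marker covariate gave 55, of which 23 lower and 33 of the 70, so that the split turned from mostly lower to mostly higher. The replicate number as a block gave 92 (60 of the 70). The labels do not say what same-numbered libraries share. Leaving out a library gave 23 to 134 calls, 10 to 35 higher and 12 to 99 lower. In all 12 such fits 20 of the 70 were kept, and 39 in fewer than 6.

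The sex by genotype test called 284 genes with DESeq2, 546 with no low-count filter and 0 with any library left out. For dorsal against ventral hippocampus 1 gene was called with no low-count filter and 0 with any library left out. For dorsal hippocampus against prefrontal cortex it was 11 with DESeq2, 172 with no low-count filter and 0 to 1 with a library left out. The cause of these shifts was not tested.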
